A study of Rattus norvegicus with 16 samples.

Results

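A set of 10 genes of glutathione metabolism and the Nrf2 antioxidant response was followed in the livers of female Sprague-Dawley rats, 5 weeks of age, fed 1 of 4 diets. The genes were Gclc, Gclm, Slc7a11, Gsr, Gpx2, Txnrd1, Srxn1, Hmox1, Osgin1 and Akr7a3, and they were chosen by name: every probe set of the array that the platform annotation pairs with exactly 1 gene symbol, current or older, was taken where that symbol was 1 of these 10, of 14839 named genes in all. The list was made with earlier results of these data known, so counts over it are descriptive. All animals ate Teklad mash (4%). It held MeUAB30 at 200 ppm (written 4-methyl-UAB30 in the study's title), UAB30 at 200 ppm or Targretin at 150 ppm for 7 days, or no added compound (Control, for which the labels give no feeding period). All 3 activate the retinoid X receptor (RXR), the common partner of many nuclear receptors on DNA, and Targretin is bexarotene. Each group had 4 liver samples, each on its own whole-transcript exon array, 16 arrays in all. The labels do not say that each sample came from a separate rat, so p-values measure only how these arrays vary, part of which may be technical. In whole liver, fewer cells of a type and less RNA per cell cannot be told apart.

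Nrf2, encoded by Nfe2l2, is a transcription factor that Keap1 holds in the cytoplasm and marks for breakdown. Reactive electrophiles and oxidants block Keap1, Nrf2 then enters the nucleus, pairs with a small Maf protein and binds antioxidant response elements near its target genes, while Bach1 competes for the same elements. In liver these targets make and recycle glutathione, reduce peroxides and oxidised proteins, break down heme and clear reactive aldehydes and quinones. RXR is also known to bind Nrf2 and to lower its activity.

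The antioxidant response element has the core TGACNNNGC, where N is any base. That core was searched on both strands of RefSeq promoter windows (build GRCr8, from 250 bases before to 50 bases after a gene's start), which were found for 8 of the 10 genes, with 2 windows for Txnrd1. It lay in 3 of these 9 windows, those of Gclm, Gpx2 and 1 of Txnrd1, against 12.1% of all 33469 windows, and each match was on the opposite strand. The matches began 172 bases before the start for Gclm, 78 bases for Txnrd1 and 13 bases for Gpx2. No match in a window says only that these letters are not in it. A match says only that they are, and whether it works as an element was not tested. The windows below are shown because Gclc and Gclm encode the 2 subunits of 1 enzyme and their values are described together, and because the other pair hold the element. The windows are chr8:87510226-87510525 (Gclc, plus strand), chr2:213031885-213032184 (Gclm, plus strand), chr7:22755855-22756154 (Txnrd1, minus strand) and chr6:101229984-101230283 (Gpx2, minus strand), written 5′ to 3′ with the match in capitals.
Gclc: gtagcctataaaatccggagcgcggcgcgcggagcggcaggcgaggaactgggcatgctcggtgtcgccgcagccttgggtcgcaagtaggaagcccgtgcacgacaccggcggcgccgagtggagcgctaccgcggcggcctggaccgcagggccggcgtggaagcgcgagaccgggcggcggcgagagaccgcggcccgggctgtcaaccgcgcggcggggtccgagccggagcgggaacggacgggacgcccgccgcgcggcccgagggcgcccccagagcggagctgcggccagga
Gclm: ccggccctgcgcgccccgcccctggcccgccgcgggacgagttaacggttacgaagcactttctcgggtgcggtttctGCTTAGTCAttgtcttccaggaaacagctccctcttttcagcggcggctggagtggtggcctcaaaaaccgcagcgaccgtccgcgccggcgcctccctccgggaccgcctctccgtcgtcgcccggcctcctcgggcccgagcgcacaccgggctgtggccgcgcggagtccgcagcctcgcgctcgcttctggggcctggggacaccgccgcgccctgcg
Txnrd1: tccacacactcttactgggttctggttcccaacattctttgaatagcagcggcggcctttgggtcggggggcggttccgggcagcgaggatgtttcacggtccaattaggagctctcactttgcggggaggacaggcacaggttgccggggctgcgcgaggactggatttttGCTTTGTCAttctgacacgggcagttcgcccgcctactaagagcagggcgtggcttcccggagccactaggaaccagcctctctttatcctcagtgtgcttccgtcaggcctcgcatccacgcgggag
Gpx2: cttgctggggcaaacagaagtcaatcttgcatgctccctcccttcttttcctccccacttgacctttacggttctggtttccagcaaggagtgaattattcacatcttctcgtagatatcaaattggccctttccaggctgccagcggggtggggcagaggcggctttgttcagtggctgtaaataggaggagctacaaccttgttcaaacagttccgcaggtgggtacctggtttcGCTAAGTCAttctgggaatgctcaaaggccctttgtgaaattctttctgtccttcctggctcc

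All levels below are gene values on the log2 scale: log2(intensity + 1), summarised by median polish over the bright probe sets of the gene. Probe sets counted as bright when they averaged at least 6.01 on that scale, which left out the lower 75 percent. All 10 genes kept at least 1 probe set, 94 of their 119 in all. Gclc kept 20 of 21, Txnrd1 17 of 18, Gsr 11 of 12, Osgin1 10 of 11, Gclm 9 of 9, Akr7a3 9 of 9, Hmox1 6 of 6, Srxn1 6 of 11, Gpx2 5 of 8 and Slc7a11 1 of 14. Array medians of intensity lay between 22.2 and 23.8. Of each group 1 array, MeUAB30 1, UAB30 3, Targretin 2 and Control 3, spanned the least intensity between its median and its brightest probe sets (6.06 to 6.15 as a log2 ratio of the 99th percentile over the median). The same 4 arrays also correlated least with the other arrays of their group, down to a mean r of 0.910 for Control 3. Where 1 of the 10 genes gained a call without these 4 arrays, both values are given. The linear values of 4 of 6 hepatocyte markers were summed, so the brightest weigh most. The log2 of the sum ran from 15.54 to 15.64 in MeUAB30 and 15.67 to 15.80 in UAB30 livers. It ran from 15.54 to 15.69 in Targretin and 15.58 to 15.72 in Control livers. All MeUAB30 arrays thus lay below all UAB30 arrays, by a small margin, and 0 of the 4 markers were called in any comparison. Their part in the values of the 10 genes was not tested.

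**Figure D1:**
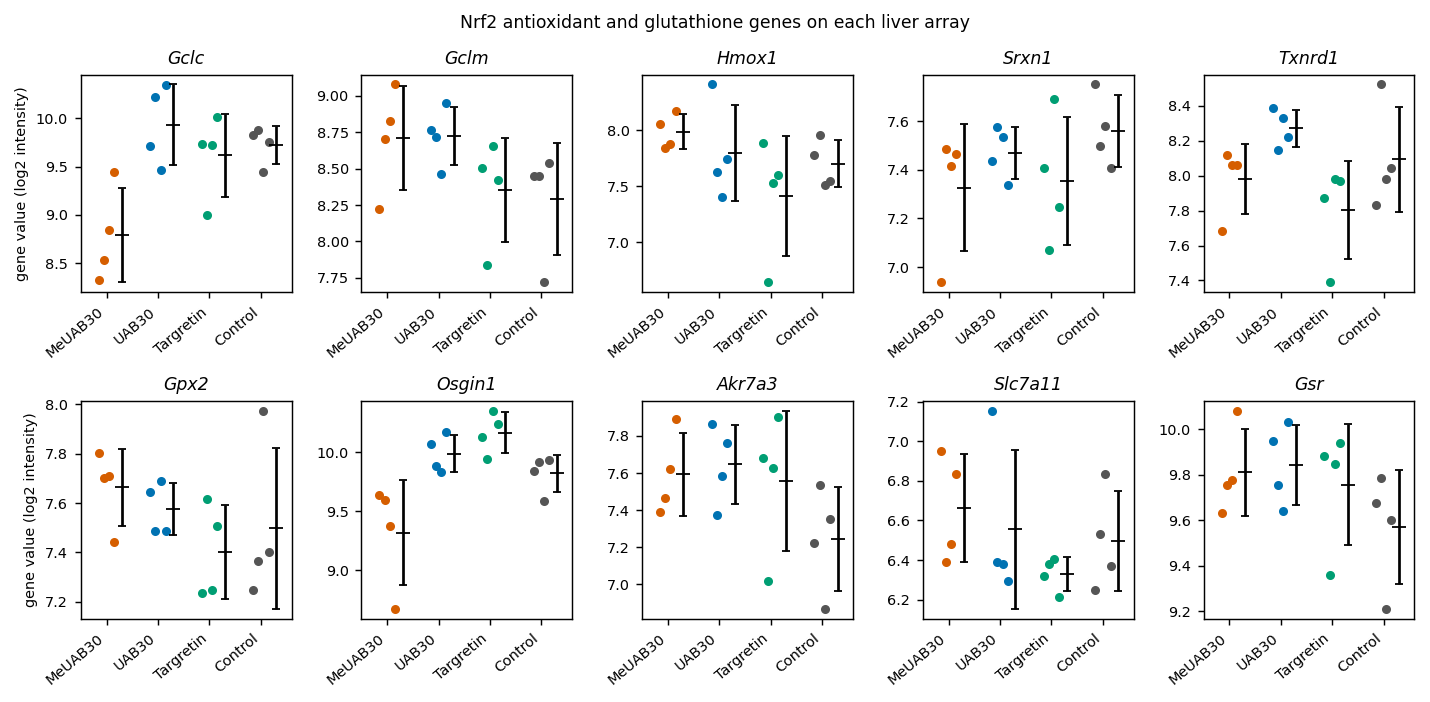
Gene value (y axis, log2 intensity, a separate scale for each gene) of the 10 genes on each of the 16 arrays, in the MeUAB30, UAB30, Targretin and Control groups. Points are arrays and the bar beside them is the mean with its SD (n = 4). Gclc and Osgin1 stand lowest in MeUAB30 livers, and in the other 8 panels the groups lie closer together.

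Of the 10 genes, 1 changed with MeUAB30, and 0 passed the test with UAB30 or with Targretin. Gclc, the catalytic subunit of glutamate-cysteine ligase and the rate-limiting enzyme of glutathione synthesis, fell 1.91-fold with MeUAB30 against Control and was 2.21-fold lower than with UAB30 at the same dose. Rates of calls over all 12156 genes tested are the background for these counts. In MeUAB30 against Control 9.89% of genes were called (limma, adjusted p under 0.05), and 2.01% fell. In UAB30 against Control 0.0823% were called, in Targretin against Control 2.18%, and in MeUAB30 against UAB30 1.39%, with 0.691% lower. A count of 1 in 10 with MeUAB30 thus stood near the background rate. At an unadjusted limma p under 0.05 the counts were 2 of 10 with MeUAB30, 1 with UAB30, 0 with Targretin and 2 between MeUAB30 and UAB30. The median log2 change of the 10 genes was 0.17 with MeUAB30, 0.17 with UAB30, -0.10 with Targretin and -0.043 between MeUAB30 and UAB30, beside 0.058, 0.052, -0.0068 and 0.020 over all genes. The arrays of the groups were also compared by overlap. In MeUAB30 against Control the groups lay fully apart for 0 of the 10 genes, beside 14.4% of all genes (11.7% higher, 2.78% lower), and in UAB30 against Control for 0 of 10, beside 3.4% (2.58% higher, 0.814% lower). The 3 compound diets share the Control arrays, so their comparisons with Control are not independent.

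**Figure D2:**
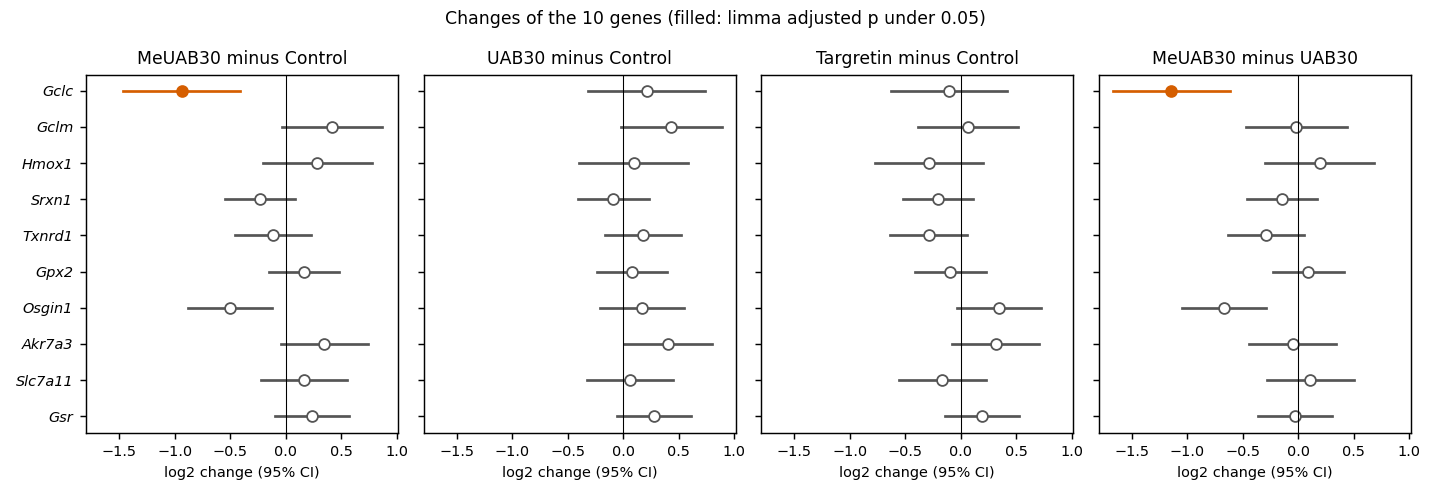
Log2 change (x axis) of the 10 genes in MeUAB30 minus Control, UAB30 minus Control, Targretin minus Control and MeUAB30 minus UAB30, with 95% confidence intervals from the limma model over 16 arrays. Filled points passed the adjusted threshold, which was Gclc in the first and last panels, at -0.94 and -1.15.

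Gclc passed with MeUAB30 and Gclm, the other subunit of glutamate-cysteine ligase, did not. Gclc had gene values of 8.33, 8.54, 8.84 and 9.45 in MeUAB30 livers, 9.72, 10.22, 9.46 and 10.34 in UAB30 livers, 9.74, 9.003, 9.72 and 10.01 in Targretin livers, and 9.83, 9.88, 9.44 and 9.76 in Control livers. Of the MeUAB30 arrays 3 lay below all Control arrays, and the fourth lay just above the lowest Control array. All 4 MeUAB30 arrays lay below all 4 UAB30 arrays, though the highest MeUAB30 array and the lowest UAB30 array were almost level. The mean was 8.79 ± 0.49 in MeUAB30 livers, 9.94 ± 0.42 in UAB30, 9.62 ± 0.43 in Targretin and 9.73 ± 0.19 in Control livers (SD, n = 4 each). The change was -0.94 in MeUAB30 against Control (SE 0.25, limma adjusted p = 0.0238) and -1.15 in MeUAB30 against UAB30 (SE 0.25, limma adjusted p = 0.0274). With UAB30 it was 0.21 (95% confidence interval -0.32 to 0.74, limma adjusted p = 0.887) and with Targretin -0.11 (-0.63 to 0.42, limma adjusted p = 0.959). In order of the mean Gclc ran MeUAB30, Targretin, Control, UAB30, and the arrays of each neighbouring pair overlapped.

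Both Gclc calls depended on single arrays. Against Control the call was lost without MeUAB30 1, 2 or 3 or Control 1 or 4, with limma adjusted p up to 0.0769. Against UAB30 it was lost without MeUAB30 1, 2 or 3 or UAB30 2 or 4, up to 0.114. The log2 change stayed between -1.16 and -0.78 against Control and between -1.37 and -0.99 against UAB30 over these leave-one-out fits, and without the 4 arrays of low correlation it was -0.88 and -1.15 (limma adjusted p = 0.0126 and 0.0108).

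The lower Gclc signal ran over the whole set of its probe sets. All 20 bright probe sets had a negative change in MeUAB30 against Control, between -1.46 and -0.25 with a median of -0.98, and in 12 of them every MeUAB30 array lay below every Control array. The dim probe set also had a negative change, of -1.02. Against UAB30 all 20 were negative as well, with a median of -1.11, and the groups did not overlap in 10. These probe sets read the same gene on the same arrays, so they are not separate observations. No share over all probe sets is set beside these counts, and the gene value of Gclc overlapped between MeUAB30 and Control. In UAB30 against Control 19 of the 20 had a positive change, with a median of 0.18, and in Targretin against Control 14 had a negative one, with a median of -0.098.

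Gclm encodes the modifier subunit, which raises the efficiency of the catalytic subunit. Its gene values were 8.23, 8.70, 8.83 and 9.08 in MeUAB30 livers, 8.76, 8.72, 8.47 and 8.95 in UAB30 livers, 8.50, 7.84, 8.66 and 8.42 in Targretin livers, and 8.45, 8.45, 7.72 and 8.54 in Control livers. All groups overlapped, and Control 3 lay far below the other Control arrays. The log2 change was 0.42 with MeUAB30 (SE 0.21, limma adjusted p = 0.259), 0.43 with UAB30 (limma adjusted p = 0.661) and 0.065 with Targretin (limma adjusted p = 0.975), and none passed. Without Control 3 it was 0.23 with MeUAB30 and 0.24 with UAB30 (limma adjusted p = 0.493 and 0.606). Without the 4 arrays of low correlation the MeUAB30 change was 0.39 and passed (limma adjusted p = 0.0345). Between MeUAB30 and UAB30 the difference was -0.018, with a 95% confidence interval of -0.47 to 0.43. Of its 9 probe sets 8 had a positive change with MeUAB30 and 9 with UAB30.

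Because both subunits were read on every array, their difference within an array is described too. It was chosen after their values had been seen, so no test of it is given. Gclc minus Gclm was 0.082 ± 0.22 in MeUAB30 livers, 1.21 ± 0.28 in UAB30, 1.26 ± 0.23 in Targretin and 1.43 ± 0.21 in Control livers (log2, SD, n = 4 each). All 4 MeUAB30 arrays, from -0.16 to 0.37, lay below the 4 UAB30 arrays, from 0.95 to 1.498. They also lay below the 4 Control arrays, from 1.22 to 1.72. Choosing the pair after its values were seen favours such a gap, and no share over other gene pairs is set beside it. The gene value of Gclc itself overlapped between MeUAB30 and Control. The group means differed by -1.35 in MeUAB30 against Control and by -1.13 in MeUAB30 against UAB30, and against Control by -0.22 with UAB30 and -0.17 with Targretin. The quantity sets no level of one gene against the other.

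**Figure D3:**
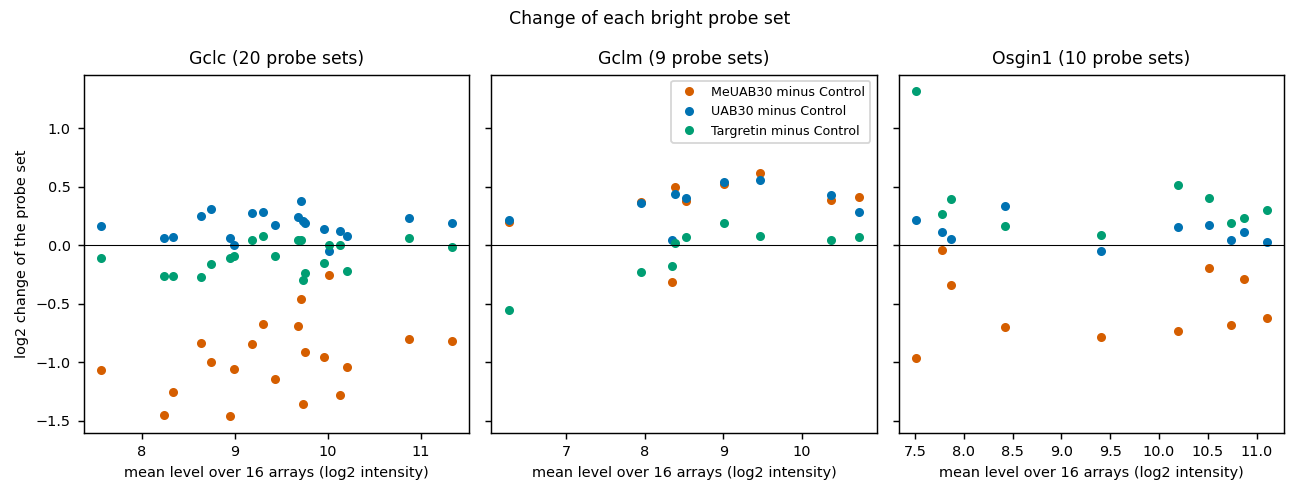
Log2 change against Control (y axis) of each bright probe set of Gclc (20), Gclm (9) and Osgin1 (10) against its mean log2 intensity over 16 arrays (x axis), for MeUAB30, UAB30 and Targretin. The MeUAB30 points of Gclc and Osgin1 all lie below 0, with medians of -0.98 and -0.65, whereas 8 of the 9 for Gclm lie above 0.

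Patterns most like that of Gclc over the 16 arrays were those of Abca6, an ABC transporter, and Tmtc4, with root mean square differences of 0.19 and 0.22 between mean-centred log2 values, where Gclc itself varied by 0.55. Abca6 averaged 8.89 ± 0.35 in MeUAB30 livers, 9.79 ± 0.29 in UAB30, 9.76 ± 0.35 in Targretin and 9.93 ± 0.33 in Control livers (SD, n = 4 each). Tmtc4 averaged 7.98 ± 0.40 in MeUAB30, 8.72 ± 0.29 in UAB30, 8.37 ± 0.34 in Targretin and 8.74 ± 0.23 in Control livers (SD, n = 4 each). Both genes were picked for their likeness to Gclc on these arrays, which fixes the direction of their MeUAB30 change, so no test of it is given.

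Slc7a11, Gsr and Gpx2 did not pass in any comparison. Slc7a11, the light chain of the cystine-glutamate exchanger, was read by 1 bright probe set, with a mean level of 6.51. The other 13 had mean levels from 2.38 to 5.58, below the threshold of 6.01, so the gene value rests on the bright one. That probe set lay between 6.39 and 6.95 in MeUAB30 livers, 6.30 and 7.15 in UAB30, 6.21 and 6.40 in Targretin and 6.25 and 6.83 in Control livers. The sign of its change with MeUAB30 and with UAB30 turned when dim probe sets were included. Gsr, glutathione reductase, which returns oxidised glutathione to its reduced form, averaged 9.81 ± 0.19 in MeUAB30, 9.84 ± 0.18 in UAB30, 9.76 ± 0.27 in Targretin and 9.57 ± 0.25 in Control livers (SD, n = 4 each). Its log2 changes were 0.24, 0.27 and 0.19 with MeUAB30, UAB30 and Targretin (limma adjusted p = 0.407, 0.717 and 0.809). All 11 of its bright probe sets had a positive change in each of these 3 comparisons, which share the Control arrays. Gpx2, a glutathione peroxidase best known from the gut, had log2 changes of 0.17, 0.079 and -0.095, and the Targretin value turned positive with other summaries of its probe sets.

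In the thioredoxin arm neither member passed. Txnrd1, the cytosolic thioredoxin reductase, had gene values of 7.68, 8.12, 8.06 and 8.06 in MeUAB30 livers, 8.39, 8.15, 8.33 and 8.22 in UAB30 livers, 7.87, 7.39, 7.98 and 7.97 in Targretin livers, and 7.83, 8.52, 7.98 and 8.04 in Control livers. All 4 MeUAB30 arrays lay below the 4 UAB30 arrays, yet the difference of -0.29 did not pass (SE 0.16, limma adjusted p = 0.553). The gap was narrow, from 8.12 to 8.15, and the groups did not overlap in 3 of its 17 bright probe sets. Such non-overlap between MeUAB30 and UAB30 was seen in 3 of the 10 genes, Gclc, Osgin1 and Txnrd1, all lower with MeUAB30, against 8.31% of all genes (4.66% higher, 3.64% lower). Changes of Txnrd1 against Control were -0.11 with MeUAB30, 0.18 with UAB30 and -0.29 with Targretin. Srxn1, sulfiredoxin, which rescues over-oxidised peroxiredoxins, averaged 7.33 ± 0.26 in MeUAB30, 7.47 ± 0.11 in UAB30, 7.35 ± 0.26 in Targretin and 7.56 ± 0.15 in Control livers (SD, n = 4 each). Its changes against Control lay between -0.23 and -0.088, and its bright probe sets disagreed in sign, with 3 positive and 3 negative for MeUAB30 and for UAB30.

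Osgin1, an oxidative stress-induced growth inhibitor, had the widest span of group means after Gclc, at 0.85. Its gene values were 9.63, 9.59, 9.37 and 8.67 in MeUAB30 livers, 10.06, 9.89, 9.83 and 10.17 in UAB30 livers, 10.13, 9.94, 10.35 and 10.24 in Targretin livers, and 9.84, 9.92, 9.59 and 9.93 in Control livers. All MeUAB30 arrays lay below all UAB30 arrays, and all Targretin arrays lay above all Control arrays, while MeUAB30 and Control overlapped. The log2 change was -0.50 in MeUAB30 against Control (SE 0.18, limma adjusted p = 0.0897) and -0.67 in MeUAB30 against UAB30 (SE 0.18, limma adjusted p = 0.0795), and it missed the threshold in both. Without the 4 arrays of low correlation it passed in both, at -0.68 and -0.83 (limma adjusted p = 0.0225 and 0.0338). With Targretin it was 0.34 (SE 0.18, limma adjusted p = 0.516), the 1 member of 10 whose Targretin and Control arrays did not overlap, against 5.33% of all genes (2.99% higher, 2.34% lower). With UAB30 it was 0.17 (limma adjusted p = 0.874). All 10 bright probe sets had a negative change with MeUAB30 and all 10 a positive one with Targretin. Array MeUAB30 4 was the lowest, and without it the change against Control was -0.29.

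Hmox1, heme oxygenase 1, which breaks heme down to biliverdin, averaged 7.99 ± 0.15 in MeUAB30, 7.79 ± 0.43 in UAB30, 7.41 ± 0.53 in Targretin and 7.70 ± 0.21 in Control livers (SD, n = 4 each). Its log2 changes of 0.29, 0.096 and -0.29 did not pass (limma adjusted p = 0.522, 0.953 and 0.790), and Targretin 2, at 6.64, lay below every other array. Without Targretin 2 the Targretin change was -0.031. Kupffer cells, the liver macrophages, also express Hmox1. The linear values of 6 of 7 Kupffer markers were summed in the same way. The log2 of the sum ran from 11.5 to 11.7 in MeUAB30 and 11.4 to 12.1 in UAB30 livers. It ran from 10.9 to 12.0 in Targretin and 10.8 to 11.8 in Control livers. Of these markers 0 were called in any comparison by limma (lowest adjusted p = 0.0685). Their part in the Hmox1 values was not tested. Akr7a3, an aldo-keto reductase that detoxifies aflatoxin dialdehyde in rat liver, averaged 7.59 ± 0.22 in MeUAB30, 7.65 ± 0.21 in UAB30, 7.56 ± 0.38 in Targretin and 7.24 ± 0.28 in Control livers (SD, n = 4 each). Its log2 changes of 0.35, 0.40 and 0.31 did not pass (limma adjusted p = 0.286, 0.619 and 0.636), with 8 of its 9 probe sets positive in each comparison.

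For the 10 genes in UAB30 against Control and the 10 in Targretin against Control, no 95% confidence interval reached beyond a 1.85-fold or a 1.71-fold change. For the 9 uncalled genes in MeUAB30 against Control the widest bound was 1.84-fold, and in MeUAB30 against UAB30 it was 2.06-fold, for Osgin1. These intervals bound changes of the gene values and do not show that the diets acted alike. Dim probe sets, 13 of 14 for Slc7a11, 5 of 11 for Srxn1 and 3 of 8 for Gpx2, do not enter them. The Slc7a11 interval rests on 1 probe set. Since Targretin was fed at 150 ppm and the other compounds at 200 ppm, its values are set beside theirs with no test between them.

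Of the regulators of the pathway, 7 of 10 listed genes were tested, Nfe2l2, Keap1, Bach1 and Mafg among them, and 0 passed in any comparison by limma (lowest adjusted p = 0.248). Nfe2l2 averaged 10.09 ± 0.26 in MeUAB30, 10.30 ± 0.25 in UAB30, 9.88 ± 0.50 in Targretin and 10.18 ± 0.21 in Control livers (SD, n = 4 each). Keap1 had log2 changes of 0.29, 0.11 and 0.13 with MeUAB30, UAB30 and Targretin, Bach1 -0.29, -0.093 and -0.094, and Mafg 0.15, 0.021 and -0.0064.

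Around the 10 genes, 67 of 78 further genes of 8 lists of antioxidant, glutathione, NADPH, heme, detoxification and stress genes were tested. With MeUAB30 24 of them rose and 4 fell, beside 7.88% of all genes that rose and 2.01% that fell. Their median log2 change was 0.29, against 0.058 over all genes. With UAB30 2 rose and 0 fell, beside 0.074% and 0.00823% of all genes, and with Targretin 6 rose and 0 fell, beside 1.51% and 0.666%. Because the 8 lists were chosen with earlier results of these data known, these counts are descriptive and are no test of enrichment. The MeUAB30 count of 24 was 13 without Control 4 and 15 without MeUAB30 4 or Control 1, 16 without MeUAB30 2 or 3, and 24 without the 4 arrays of low correlation, and the count of 4 that fell ranged from 1 to 5 over the leave-one-out fits. With array weights 27 rose and 7 fell, and with a covariate for intensity range 24 rose and 8 fell, with a median change of 0.19. The UAB30 count of 2, Nqo1 and Ugt1a6, was 0 without UAB30 1, Control 1 or Control 4.

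**Figure D4:**
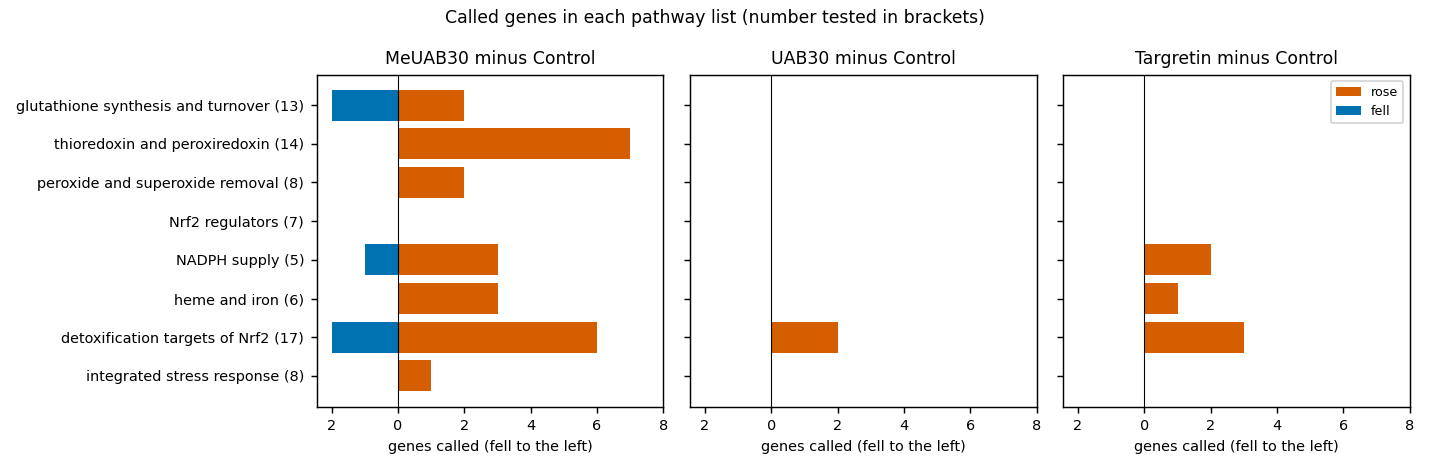
Number of genes called by limma (adjusted p under 0.05) in each of 8 pathway lists, with the number tested in brackets, in MeUAB30, UAB30 and Targretin against Control. Bars to the right count genes that rose and bars to the left genes that fell. With MeUAB30 7 of 14 thioredoxin and peroxiredoxin genes rose, and 0 of 7 Nrf2 regulators passed. The lists include the members and were chosen with earlier results of these data known.

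In the thioredoxin and peroxiredoxin list 7 of 14 genes rose with MeUAB30 and 0 fell, and neither Txnrd1 nor Srxn1 was among the 7. With UAB30 and with Targretin 0 of the 14 were called by limma (lowest adjusted p = 0.245 and 0.493). In the direct comparison of MeUAB30 with UAB30 0 of the 14 were called either (lowest limma adjusted p = 0.162). Glrx, for 1, changed 1.84-fold upward with UAB30 without passing (limma adjusted p = 0.245). Txn1, thioredoxin, lay at 11.13, 10.84, 11.15 and 11.29 in MeUAB30 livers, against 9.63, 10.61, 9.66 and 9.47 in Control livers, and rose 2.40-fold (limma adjusted p = 0.00813). All MeUAB30 arrays lay above all Control arrays, of which Control 2 stood apart from the other 3. The mitochondrial thioredoxin Txn2 rose 1.92-fold (limma adjusted p = 0.00293), its reductase Txnrd2 1.48-fold, the glutaredoxin Glrx 2.01-fold, and the peroxiredoxins Prdx2, Prdx3 and Prdx5 by 1.60-fold, 1.68-fold and 2.02-fold. Txnrd2 and the peroxiredoxins were named after their values were seen. Of 8 peroxide and superoxide genes Sod1 rose 1.47-fold and Gpx1 1.30-fold with MeUAB30.

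Glutathione synthesis and turnover genes were split with MeUAB30, 2 rising and 2 falling of 13. Gss, glutathione synthetase, which adds glycine to the product of glutamate-cysteine ligase, rose 1.59-fold (limma adjusted p = 0.0388, named after its values were seen). Slc3a2, the heavy chain that carries Slc7a11 and other transporters, rose 1.58-fold (limma adjusted p = 0.0253). Besides Gclc, the neutral amino acid transporter Slc1a4 fell by 0.80 on the log2 scale (limma adjusted p = 0.00402), and its MeUAB30 minus UAB30 difference was -0.67 (limma adjusted p = 0.0405). With UAB30 and with Targretin 0 of these 13 were called, and the lowest limma adjusted p was 0.587 and 0.379.

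Of 6 heme and iron genes 3 rose with MeUAB30, the biliverdin reductases Blvrb and Blvra, which act after heme oxygenase, by 2.08-fold and 2.05-fold (limma adjusted p = 0.000407 and 0.00833) and the ferritin heavy chain Fth1 by 1.30-fold (limma adjusted p = 0.0493). Blvrb also rose with Targretin, by 1.82-fold (limma adjusted p = 0.00384), and Hmox1 itself was not among the risers. With UAB30 Blvrb lay 1.62-fold above Control and did not pass (limma adjusted p = 0.151). Between MeUAB30 and UAB30 0 of the 6 were called (lowest limma adjusted p = 0.363). Of 5 NADPH supply genes Taldo1, Me1 and Tkt rose with MeUAB30, by 1.82-fold, 1.78-fold and 1.49-fold, and Idh1 fell by 0.36 on the log2 scale. Me1, malic enzyme, which also serves fatty acid synthesis, rose 5.09-fold with Targretin and Tkt, transketolase, 1.73-fold. With UAB30 Me1 lay 1.68-fold above Control and did not pass (limma adjusted p = 0.264). Its MeUAB30 minus UAB30 difference was 0.084 on the log2 scale. In the integrated stress response list, which holds Slc7a11, Asns alone of 8 rose with MeUAB30 (1.86-fold, limma adjusted p = 0.00635).

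Detoxification genes known as Nrf2 targets in rodents moved in both directions, with 6 rising and 2 falling of 17 with MeUAB30. Nqo1, a quinone reductase that both Nrf2 and the aryl hydrocarbon receptor can raise, lay at 9.33, 9.79, 9.47 and 9.39 in MeUAB30 livers, 9.68, 9.27, 8.85 and 9.22 in UAB30 livers, 8.46, 7.47, 8.28 and 8.30 in Targretin livers, and 7.84, 8.18, 7.96 and 7.71 in Control livers. All MeUAB30 and all UAB30 arrays lay above all Control arrays, whereas Targretin overlapped with Control. It rose 2.97-fold with MeUAB30 and 2.52-fold with UAB30 (limma adjusted p = 0.000147 and 0.00978), and the MeUAB30 minus UAB30 difference was 0.24 (95% confidence interval -0.19 to 0.67). The aldo-keto reductase Akr1b10 rose 3.72-fold with MeUAB30 and stood 3.33-fold above UAB30, and MeUAB30 2, at 11.27, lay well above the other 3 MeUAB30 arrays. The carbonyl reductase Cbr1 rose 1.77-fold with MeUAB30, and Gsta2, Gstp1 and Mgst2, of the glutathione transferase families, rose 1.74-fold, 1.55-fold and 1.77-fold, the last pair named after their values were seen. Gstm1, another glutathione transferase, fell by 0.53 and the glucuronosyltransferase Ugt1a6 by 0.64 with MeUAB30.

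Between MeUAB30 and UAB30, 1 of the 67 further genes was higher with MeUAB30, Akr1b10, and 5 were lower, beside 0.699% and 0.691% of all genes. That balance depended on the fit, since 11 were higher and 9 lower with array weights, and 4 higher and 9 lower with the covariate. In the fit without either, the lower 5 were Ugt1a6 (log2 difference -1.63), Abcc3, a conjugate exporter (-0.89), Gstm1 (-0.80), Slc1a4 (-0.67) and Idh1 (-0.45). With Targretin the 6 risers were Me1, Tkt, Blvrb, Abcc3 (2.22-fold), Gsta2 (2.17-fold) and the epoxide hydrolase Ephx1 (1.73-fold). Gsta2, Gstm1 and Ugt1a6 have near-identical relatives that their probe sets may also read, which makes their values uncertain. Among markers of the other cell types, Hbb fell with Targretin and Fabp2, a fatty acid binding protein of enterocytes, rose with MeUAB30, by 1.17 on the log2 scale, while the other enterocyte markers tested, Lct and Si, did not pass. Hbb and Fabp2 were named after their values were seen, and their part in these results was not tested.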

How the data were processed

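RNA of 16 liver samples was measured on Affymetrix exon arrays by whole-transcript labelling, 4 arrays for each of 4 diets taken from the sample titles. The deposited values were read as intensity per probe set on a linear scale, from their range. How the authors corrected and normalized these intensities before deposit is not given in the sources used for this text, and the build is rn4 per the submitters' processing notes. All 16 columns matched a sample. Of 887828 probe sets, 177688 had 1 gene symbol in the platform annotation, 2920 several and 707220 none here, and symbols were updated through a RefSeq table (GRCr8), also the source of promoter windows. The values had no zeros. Here they were turned into log2(intensity + 1) and kept where they averaged at or above the 75th percentile of all probe sets (103692 probe sets). Median polish gave 1 value per gene and array for 12156 genes.

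Groups were compared with limma 3.58.1 in R 4.3.3 on all 16 arrays, with Benjamini-Hochberg adjustment over all genes of a comparison and a threshold of 0.05. The procedure was tested on simulated data for MeUAB30 against Control. It recovered 41.8% of simulated 1.5-fold changes, 86.6% of 2-fold and 100% of 4-fold changes, and 7.32% of its calls were false. Small changes can therefore be missed. The noise was drawn independently for each gene and array, in a single run. Deviations shared by the genes of an array were left out, so these rates may differ in the real data. The number of arrays limits the precision. Correlations between arrays lay between 0.889 and 0.976, and no array pair held identical values. Targretin, given at 150 ppm, was not tested against the other compounds at 200 ppm.

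The 10 genes, the 8 pathway lists and the marker lists were chosen with earlier results of these data known. Outside the 10 genes, Nfe2l2, Keap1, Bach1, Mafg and Nqo1, up to 3 called genes per list and comparison with the smallest adjusted p, and the 2 genes most like each called member were named by rule; genes beyond it are named as such. The alternatives were quantile normalization, no filter, a filter at the 90th percentile, a pseudocount of 16, the mean of probe sets, only the 8 arrays compared, a replicate block, array weights, the intensity range as a covariate, fits without the 4 arrays of low correlation, and leaving out each array in turn.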

Additional observations from a re-analysis of the deposited data

Results flagged for a closer look

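In 5 of 40 sets of 4 arrays (10 genes in 4 groups) 1 array lay far from the other 3 by Dixon's test, and chance flags about 1 set in 20. Gclm in Control 3 was low at 7.72, with the other 3 Control arrays between 8.45 and 8.54. Srxn1 in MeUAB30 1 was low at 6.94, with the others between 7.42 and 7.49, and Txnrd1 on the same array was low at 7.68, with the others between 8.06 and 8.12. Gsr in Targretin 2 was low at 9.36, with the others between 9.85 and 9.94. These 4 values came from 3 of the 4 arrays that correlated least with their group mates. Slc7a11 in UAB30 1 was high at 7.15, with the others between 6.30 and 6.39, and it rested on 1 probe set.

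The change of Gclc differed between the 2 compounds given at the same dose. Its change against Control was -0.94 with MeUAB30 and 0.21 with UAB30, and the difference between them, tested directly by limma, was -1.15 (adjusted p = 0.0274), with all 4 MeUAB30 arrays below all 4 UAB30 arrays.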

How the results depend on the processing

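Of 716 values of the 10 genes under an alternative, 668 kept their direction and their side of the threshold, 10 lost the call, 8 gained one and 30 turned their sign, none of the last called. Gclc in MeUAB30 against Control kept its call under all 10 alternatives other than leaving out 1 array (-1.16 to -0.88, limma adjusted p up to 0.0358). The cause was not tested for any of the changes below. Genes called with UAB30 numbered 10 (9 higher), against 44 (65.9% higher) with array weights, 106 with a covariate for intensity range and 31 (51.6%) without the 4 arrays of low correlation, and quantile normalization gave 78.6% higher. With MeUAB30 they numbered 1202 (79.7% higher), against 2771 (64.4%), 3026 (47.0%) and 2446 (61.3%) under the same 3 settings. With Targretin they numbered 265 (69.4% higher), against 761 (71.1%), 1288 (30.6%) and 495 (67.9%), and 115 in a fit of the 8 arrays alone, which has fewer samples. Between MeUAB30 and UAB30 they numbered 169 (50.3% higher), against 1337 (62.9%), 726 (43.9%) and 338 (54.1%). Leaving out 1 array gave 4 to 36 with UAB30, 634 to 1346 with MeUAB30, 172 to 402 with Targretin and 86 to 166 between MeUAB30 and UAB30. Of the 10 genes, the count called with MeUAB30 was 2 with array weights, 2 with the covariate and 3 without the 4 arrays, and between MeUAB30 and UAB30 it was 2 with no filter, 2 with array weights, 2 with the covariate and 2 without the 4 arrays, where Osgin1 joined Gclc. It was 0 to 1 in both when 1 array was left out.

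Signs turned for small, uncalled log2 changes. With UAB30 these were Slc7a11 with no filter (-0.10), Srxn1 at the 90th percentile (0.036) and Hmox1 with the covariate (-0.021), and with MeUAB30 Slc7a11 with no filter (-0.084). With Targretin they were Gpx2 at the 90th percentile (0.21), with the mean of probe sets (0.035) and with the covariate (0.0019), Gclm with the mean (-0.055) and the covariate (-0.12), and Gclc with array weights (0.0077) and without the 4 arrays (0.0039). Between MeUAB30 and UAB30, without the 4 arrays, they were Gclm (0.057), Srxn1 (0.0063) and Slc7a11 (-0.046). Leaving out 1 array gave ranges across 0: with UAB30 Hmox1 -0.11 to 0.23, Gpx2 -0.0045 to 0.24 and Slc7a11 -0.14 to 0.17; with MeUAB30 Txnrd1 -0.20 to 0.031; with Targretin Gclc -0.24 to 0.098, Gclm -0.13 to 0.24 and Gpx2 -0.18 to 0.064; between MeUAB30 and UAB30 Gclm -0.14 to 0.14, Akr7a3 -0.15 to 0.020 and Gsr -0.12 to 0.029. Of the 67 other pathway genes, counted after seeing the data, array weights called 13 with Targretin and 20 between MeUAB30 and UAB30 (11 higher, 9 lower), and the covariate called 13 between them (4 higher, 9 lower) and 5 with UAB30. With MeUAB30 the 24 that rose and 4 that fell became 27 and 7 with array weights, 24 and 8 with the covariate and 24 and 5 without the 4 arrays.

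Same-numbered arrays did not deviate together as a rule (r from -0.50 to 0.57, over 0.1 in 10 of 24 pairs). Only 4 of 16 arrays were closest to their own number. The arrays numbered 4 were an exception, since every pair of them had a positive r, from 0.18 to 0.32. The numbers were not taken to pair the samples in the main fit. With the replicate block 11 genes were called with UAB30, 1000 with MeUAB30, 209 with Targretin and 136 between MeUAB30 and UAB30, and 0, 1, 0 and 1 of the 10 genes. Intensity limited Slc7a11 most, with 13 of 14 probe sets dim.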
